A study of Mus musculus with 15 samples.

Results

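Pressure overload changed the RNA of cardiac endothelial cells in a way that could be measured across both genotypes of the study, and that shared change is described here. It was taken from all 15 of 15 libraries with a model that held genotype as a block and asked how transverse aortic constriction (TAC) differed from sham surgery. TAC narrows the aorta and makes the left ventricle pump against a raised pressure. Per the labels the cells were sorted from hearts as CD45- CD31+ cells, that is, negative for the leukocyte protein CD45 and positive for the endothelial protein CD31. The KO mice carried Cad5CreERT2 (Cad5CreERT2+/+), a tamoxifen-inducible Cre recombinase under the endothelial VE-cadherin promoter, together with STINGfl/fl, floxed alleles of the gene for the DNA-sensing adaptor STING. The WT mice were Cad5CreERT2-/- with the same STINGfl/fl alleles, so that every mouse carried the loxP sites. Hearts were taken 4 weeks after surgery from 4 KO TAC, 5 WT TAC, 3 KO sham and 3 WT sham mice. Neither the use of tamoxifen nor the age or sex of the mice is given in the sources used here. The Cad5 promoter is active in the endothelium of all organs, not of the heart alone, and the WT mice carried no Cre. Libraries are called by group and mouse number, such as KO TAC 351. RNA levels are in CPM, the counts of a gene scaled to a library of 1000000 counts after TMM normalization. A gene was called at an adjusted p under 0.05, and libraries were said to be apart where the 2 surgeries did not overlap. SE marks an error of a fitted fold change derived from its test statistic.

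Cardiac capillaries lie on a basement membrane built of type IV collagen, laminins and nidogens, which endothelial cells and the pericytes around them secrete. Beyond it lies an interstitial matrix made mostly by fibroblasts. In a pressure-overloaded heart muscle cells enlarge, fibroblasts deposit matrix, and vessels remodel and sprout to supply the larger muscle. Endothelial cells also tune vessel tone and neighbouring muscle through secreted signals such as endothelin and members of the transforming growth factor beta (TGF-beta) and bone morphogenetic protein (BMP) families.

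The libraries held 1362346 to 15670319 counts. All 22 endothelial identity genes looked at were expressed, and together they reached 21400 to 25800 CPM in TAC libraries and 22300 to 25700 CPM in sham libraries. By group these sums averaged 22000 ± 567 CPM in KO TAC and 24900 ± 871 CPM in WT TAC (SD). The sham averages were 24300 ± 1220 CPM in KO and 23300 ± 1010 CPM in WT, so that the sum was lower after TAC in KO and higher in WT. The 12 lymphocyte genes in the table summed to at most 5.1 CPM, and the 15 macrophage genes to at most 17.6 CPM, in any library. The 16 pericyte and smooth muscle genes summed to more, 152 to 227 CPM in TAC libraries and 179 to 348 CPM in sham libraries. By group they averaged 189 ± 30.7 CPM in KO TAC, 195 ± 26.5 CPM in WT TAC, 277 ± 72.1 CPM in KO sham and 196 ± 15.6 CPM in WT sham (SD). The sums of fibroblast and cardiomyocyte genes are given further on. KO sham 348 and KO sham 350 stood apart: 209 and 324 genes had no count in them where at least 10 were expected from the other libraries, against 3 to 26 genes in the other 13. WT sham 133 was the shallowest library, in which 3 counts correspond to 2.26 CPM. The targeted gene, listed as Tmem173 (Sting1), stood at 30.4, 28.1, 19.6 and 29.2 CPM in KO TAC and 75.5, 73.8, 71.8, 82 and 70.3 CPM in WT TAC, against 22.9, 31.4 and 17.3 CPM in KO sham and 53.9, 65.6 and 56.4 CPM in WT sham. The highest KO level, 31.4 CPM, lay below the lowest WT level, 53.9 CPM. TAC itself did not pass the test for it over both genotypes (log2 fold change 0.25 ± 0.11 (SE), edgeR adjusted p = 0.176), although the call appeared without KO sham 349 (adjusted p = 0.031). The counts take in all exons of the gene, also those that the recombination leaves in place.

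Over both genotypes 610 of 12471 genes tested rose after TAC (4.89%) and 454 fell (3.64%), so that 8.53% changed in edgeR's quasi-likelihood test at an adjusted p under 0.05. Most changes were small, with a median log2 fold change of 0.45 among the genes that rose and -0.43 among those that fell, and 103 rose and 42 fell by more than 2-fold. The median over all genes tested was 0.00. Fewer cells of a type and less RNA per cell cannot be told apart in these sorted bulk samples. The basement membrane and the interstitial matrix had the highest shares of genes that rose among the pathway lists with at least 5 members tested. Members of the basement membrane passed upward in 12 of 20 cases, members of the interstitial matrix in 26 of 49, matrix proteases in 10 of 25, integrins in 6 of 16 and tip cell genes in 10 of 28. The genes of cytosolic ribosomal proteins, of DNA replication and of the cGAS-STING pathway gave no call in the same test. Among single genes whose groups did not overlap within either genotype the endothelin precursor Edn1 and the chemokine Cxcl12 fell, and Col15a1, Mmp14, Plvap and Emp1 rose.

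**Figure D1:**
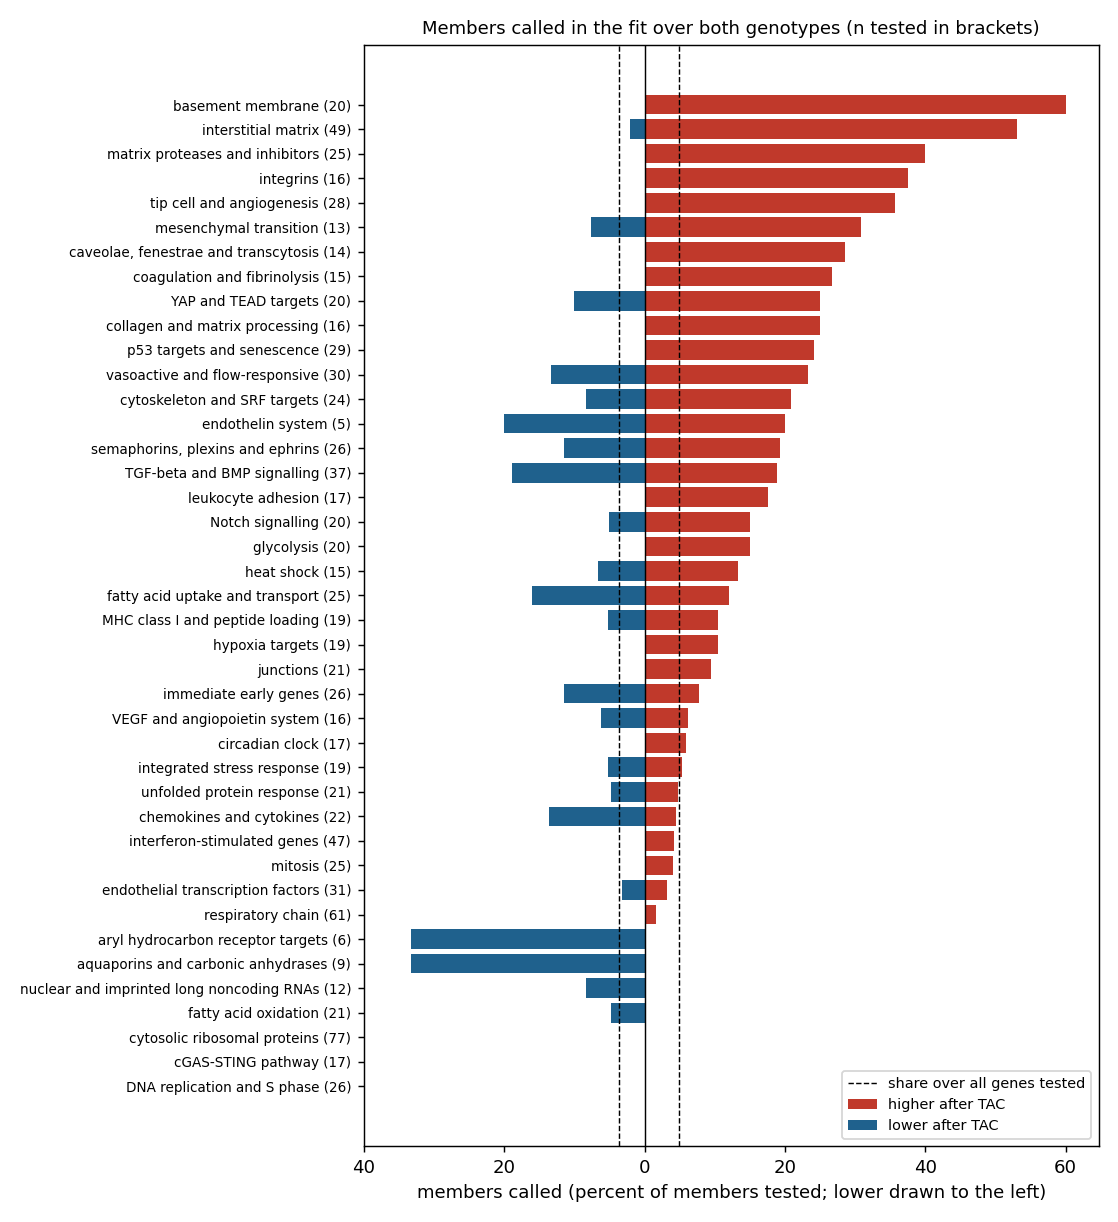
Share of the tested members of each gene list that passed the test over both genotypes (percent, adjusted p under 0.05), with members that rose drawn to the right in red and members that fell drawn to the left in blue, and the number of members tested in brackets. The dashed lines give the share over all genes tested, 4.89% higher and 3.64% lower. Lists with fewer than 5 members tested are left out. Basement membrane (60%) and interstitial matrix have the longest bars to the right, and aryl hydrocarbon receptor targets, with 6 members tested, and aquaporins and carbonic anhydrases, with 9, have the longest bars to the left.

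The design asks what WT and KO hearts had in common, and the 2 genotypes can be looked at apart because they share no library. Of the 1064 genes called over both genotypes, 1060 (99.6%) had the same sign of effect in KO and in WT, which the pooled call itself favours. In 387 of them (36.4%) every TAC library lay on the same side of every sham library within KO and again within WT, with 230 higher and 157 lower. Over all genes tested 3.3% were apart in each genotype in the same direction (1.96% higher and 1.34% lower) and 0.377% in opposite directions, and in 1.18% all 9 TAC libraries were apart from all 6 sham libraries. When each genotype was fitted alone, 378 genes were called in KO (3.03%; higher, 1.72%) and 746 in WT (5.98%; higher, 3.42%). Of the genes called in KO alone, 83.6% had the same sign in WT. Of those called in WT alone, 78.4% had the same sign in KO, against 57.3% over all genes tested. Genes called higher in KO alone had a median log2 fold change of 0.71 in KO and 0.32 in WT. Genes called higher in WT alone had one of 0.32 in KO and 0.55 in WT. Genes called lower in KO alone had medians of -0.69 in KO and -0.19 in WT. Genes called lower in WT alone had -0.18 in KO and -0.49 in WT. In each pair the genes were picked in the genotype that made the call, which makes its own median larger in size. These pairs therefore do not compare the size of the effect between KO and WT. The calls made the same way in both fits numbered 126, which is 33.3% of the KO calls and 16.9% of the WT calls, and 1 gene was called in opposite directions. Another 472 genes passed over both genotypes and in neither genotype alone. The difference between the TAC effects of KO and WT was called in 86 genes (0.69%), of which 23 were among the 1064. With any 1 library left out these counts ran from 133 to 658 in KO alone, from 328 to 1280 in WT alone, from 61 to 147 for calls made the same way in both, and from 24 (without WT sham 133) to 764 (without KO sham 349) for the difference.

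**Figure D2:**
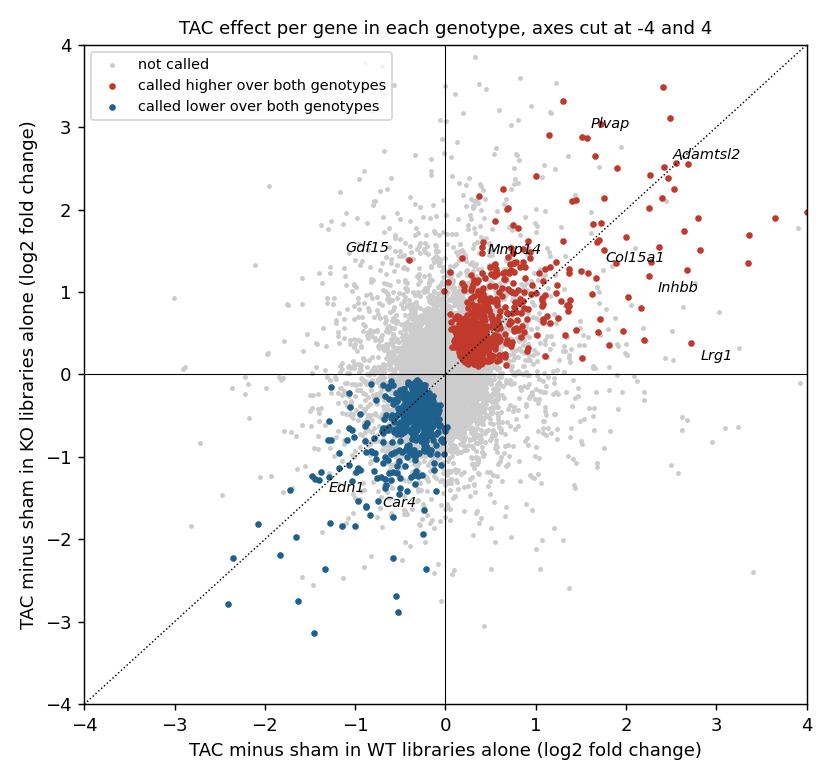
Log2 fold change of TAC over sham for each gene in WT libraries alone (horizontal axis) and KO libraries alone (vertical axis). Red and blue points were called higher or lower over both genotypes, grey points were not called, the dotted line marks equal effects, and 27 genes beyond the axes are not drawn. Called genes lie in the upper right and lower left, with Col15a1 and Edn1 near the dotted line, Plvap above it, and Lrg1 and Inhbb below it. Gdf15 was called higher over both genotypes and has an effect below 0 in WT.

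Without the genotype term 258 genes were called, and with the mean log2 level of 18 fibroblast marker genes as a further covariate 570 were called, of which 322 were among the 1064. Against a null hypothesis of a fold of 1.5 only 36 genes passed, 32 higher and 4 lower. Of 98 genes fitted for this text, 11 kept the same call in all 26 other settings, and 41 lost it without the genotype term, 39 with the fibroblast covariate and 76 against the fold of 1.5.

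Basement membrane genes rose in both genotypes. Of 20 members tested, 12 rose and none fell (60% called, against 8.53% of all genes), with a median log2 fold change of 0.47 over the 20, against 0.00 over all genes. The median was 0.42 in KO and 0.45 in WT, and 8 members were apart in each genotype. Col15a1 encodes type XV collagen, which anchors the basement membrane to the interstitial matrix (mm10 chromosome 4, 47208012 to 47313165, plus strand). It stood at 1016, 1547, 1347 and 800.5 CPM in KO TAC and 809, 847, 649.8, 832 and 756 CPM in WT TAC, against 483, 434 and 243 CPM in KO sham and 263, 237 and 226 CPM in WT sham. The lowest TAC library lay above the highest sham library, with an effect of 1.64 ± 0.14 on the log2 scale (edgeR adjusted p = 4.04e-07), 1.6 in KO and 1.68 in WT. Col4a1 (mm10 chromosome 8, 11198423 to 11312826, minus strand) and Col4a2 (mm10 chromosome 8, 11312829 to 11449287, plus strand) encode the chains of the common type IV collagen network. Col4a1 stood at 6954, 7775, 7897 and 6091 CPM in KO TAC and 6894, 6041, 5828, 5959 and 5987 CPM in WT TAC, against 5121, 4991 and 4325 CPM in KO sham and 4240, 4164 and 3849 CPM in WT sham. No TAC library overlapped a sham library (log2 fold change 0.58 ± 0.07 (SE), edgeR adjusted p = 1.02e-05). Col4a2 stood at 4657, 4940, 5240 and 4169 CPM in KO TAC and 4050, 3678, 3535, 3406 and 3695 CPM in WT TAC, against 3144, 3230 and 2890 CPM in KO sham and 2678, 2511 and 2425 CPM in WT sham, again without overlap (log2 fold change 0.57 ± 0.06 (SE), edgeR adjusted p = 4.21e-06).

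The 2 collagen IV genes lie head to head and are read outward from a shared start region, which is why their first bases are shown. In RefSeq (GRCm38.p6) the start of Col4a2 lies at 11312805 on the plus strand and that of Col4a1 at 11312826 on the minus strand of chromosome 8, so that the starts overlap by 22 bases, at chr8:11312805-11312826. The bases are given on the plus strand, all in capitals because all lie between the 2 starts:
Col4a1 and Col4a2: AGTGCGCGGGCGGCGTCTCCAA
Both genes rose in each genotype, by 0.58 in KO and 0.59 in WT for Col4a1, and by 0.62 in KO and 0.53 in WT for Col4a2. The deposited gene model of Col4a2 starts further in, and the counting used strand, so that the reads of the 2 genes were told apart.

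Laminin and nidogen genes rose too. Lamc1, the gamma chain shared by most laminins, had 821 to 1571 CPM (median 932) in TAC libraries, against 523 to 859 CPM (median 652) in sham libraries. Its effect was 0.70 ± 0.09 (edgeR adjusted p = 2.05e-05), and TAC and sham libraries overlapped only between genotypes. Lamb1 and Lama4, the beta and alpha chains of laminin 411, rose by 0.46 ± 0.10 and 0.34 ± 0.06, and neither was called with the fibroblast covariate, with Lamb1 at 0.32 (adjusted p = 0.269) and Lama4 at 0.34 (adjusted p = 0.0627). Nid1 and Nid2, the nidogens that link laminin to collagen IV, rose by 0.36 ± 0.07 and 0.63 ± 0.10, of which Nid2 stayed called with the fibroblast covariate, at 0.69 (adjusted p = 0.022), and Nid1 did not, at 0.17 (adjusted p = 0.327). Col18a1, the precursor of endostatin, rose by 0.69 ± 0.10, with 0.97 in KO and 0.42 in WT (adjusted p of the difference = 0.116). Sparc, which chaperones collagen IV, ranged over 1953 to 3203 CPM (median 2343) in TAC libraries, against 1216 to 1942 CPM (median 1446) in sham libraries, with no overlap and an effect of 0.71 ± 0.08.

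Integrins tie endothelial cells to that membrane, and 6 of 16 tested rose (37.5%, against 4.89% of all genes), with a median of 0.35 over the 16. Itga5, the fibronectin receptor subunit, ranged over 239 to 345 CPM (median 284) in TAC libraries, against 170 to 256 CPM (median 206) in sham libraries. It was apart within each genotype (log2 fold change 0.51 ± 0.06 (SE), edgeR adjusted p = 1.02e-05). Itga6, a laminin receptor subunit, ranged over 1175 to 1335 CPM (median 1279) in TAC libraries, against 884 to 1108 CPM (median 980.1) in sham libraries without overlap (log2 fold change 0.36 ± 0.06 (SE), edgeR adjusted p = 0.000507). Itgb1, the common beta subunit, rose by 0.28 ± 0.05 and Itgav by 0.42 ± 0.10. With the fibroblast covariate Itga5 stayed called, at 0.56 (adjusted p = 0.00298). Itga6 at 0.27 (adjusted p = 0.102), Itgb1 at 0.30 (adjusted p = 0.0551) and Itgav at 0.38 (adjusted p = 0.156) did not pass, and the fitted value of Itgb1 was no smaller than before. The basement membrane then gave 7 members higher and 1 lower in place of 12 and none. Without KO sham 348 and KO sham 350 it gave 13 higher.

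Interstitial matrix genes rose further and less evenly. Of 49 tested, 26 rose and 1 fell (55.1%, against 8.53% of all genes), with a median of 0.75 over the 49, and 9 were apart in each genotype. The median was 0.48 in KO and 0.82 in WT. Cilp, a matrix protein of cartilage and of activated cardiac fibroblasts (mm10 chromosome 9, 65265180 to 65280605, plus strand), stood at 4.3, 11.5, 11.3 and 5.42 CPM in KO TAC and 15.1, 18.4, 13.2, 24.7 and 16.2 CPM in WT TAC, against 0.335, 0.608 and 0 CPM in KO sham and 1.6, 0.148 and 0.752 CPM in WT sham. No TAC library fell below 38 counts, whereas 4 of 6 sham libraries held at most 3 counts. The fitted effect of 4.41 ± 0.40 (edgeR adjusted p = 8.52e-07) depends on how such low counts are handled. Postn, periostin, stood at 10.8, 12.7, 12.3 and 4.28 CPM in KO TAC and 14.5, 24.7, 9.47, 24.2 and 19 CPM in WT TAC, against 3.68, 3.75 and 1.23 CPM in KO sham and 3.11, 2.73 and 3.01 CPM in WT sham. The lowest TAC library, KO TAC 354, lay just above the highest sham library, KO sham 349 (log2 fold change 2.18 ± 0.30 (SE), edgeR adjusted p = 7.14e-05). Mfap5, a microfibril protein, ranged over 3.99 to 9.75 CPM (median 7.88) in TAC libraries, against 0.617 to 3.68 CPM (median 1.69) in sham libraries and rose by 1.92 ± 0.29. Svep1, a large adhesion protein of vessel walls, rose by 2.40 ± 0.46, and its KO sham libraries spread from 0 to 8.15 CPM.

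Among matrix genes apart within each genotype was Ctgf (Ccn2), a matricellular target of TGF-beta and of the YAP pathway (mm10 chromosome 10, 24595442 to 24598682, plus strand). It stood at 36.3, 37.4, 49.96 and 39.2 CPM in KO TAC and 25.8, 29.9, 34.3, 31.9 and 33.1 CPM in WT TAC, against 18.1, 26.2 and 23.4 CPM in KO sham and 15.6, 13.6 and 15 CPM in WT sham. The rise in CPM was seen in each genotype (log2 fold change 0.96 ± 0.11 (SE), edgeR adjusted p = 1.12e-05). Emilin1, an elastic fibre glycoprotein, ranged over 73.1 to 109.5 CPM (median 83.3) in TAC libraries, against 57.6 to 65.5 CPM (median 60.1) in sham libraries without overlap (log2 fold change 0.48 ± 0.07 (SE), edgeR adjusted p = 0.00024). Ltbp3, which holds latent TGF-beta in the matrix, rose by 0.78 ± 0.12, and Bgn, the proteoglycan biglycan, by 1.08 ± 0.16. Cyr61 (Ccn1), a close relative of Ctgf, fell instead, with 146 to 298 CPM (median 209) in TAC libraries, against 221 to 419 CPM (median 297) in sham libraries, an effect of -0.56 ± 0.15 that lost its call without WT sham 133 (adjusted p = 0.0698) and with the fibroblast covariate, at -0.20 (adjusted p = 0.635).

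**Figure D3:**
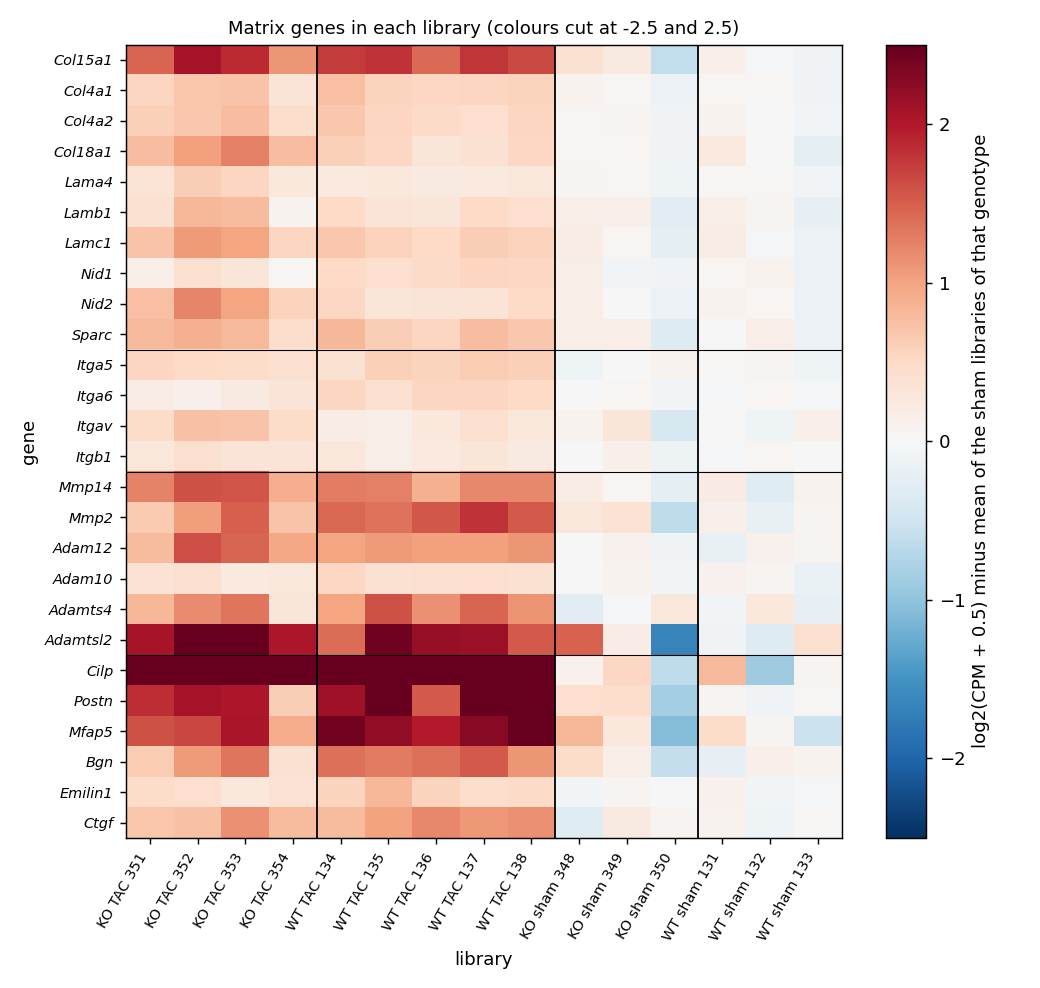
Level of 26 matrix, integrin and protease genes in each of the 15 libraries, as log2(CPM + 0.5) minus the mean of the sham libraries of the same genotype (red higher, blue lower, colours end at -2.5 and 2.5). Horizontal lines set off basement membrane genes, integrins, proteases with Adamtsl2, and interstitial matrix genes. The TAC columns on the left are red for nearly every gene in both genotypes, KO sham 350 is the bluest sham column. Cilp and Postn reach the end of the scale.

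The fibroblast marker list shares 8 of its 18 genes with the interstitial matrix list. Of 18 markers, 7 rose and 1, Pdgfra, fell (44.4%, against 8.53% of all genes). The median was 0.82 over the 18, but 0.20 in KO and 1.61 in WT. Those that rose were Lum, Col1a1, Col1a2, Pi16, Mfap5, Cilp and Postn. All of them but Pi16 are also among the interstitial matrix genes that rose, so the 2 counts are not separate results. With 1 library left out 5 to 12 rose, and 12 rose without KO sham 348 alone, without KO sham 348 and KO sham 350, and with a cardiomyocyte covariate; limma voom called 14 higher. Their summed level was 250 to 889 CPM (median 592) in TAC libraries, against 181 to 502 CPM (median 250) in sham libraries. By group it averaged 340 ± 66.9 CPM in KO TAC and 713 ± 108 CPM in WT TAC, against 294 ± 180 CPM in KO sham and 318 ± 121 CPM in WT sham (SD, n = 4, 5, 3 and 3). Col1a1, the main fibrillar collagen chain, stood at 18.3, 27.6, 25.1 and 12.4 CPM in KO TAC and 45.8, 42.5, 46.7, 49.7 and 45.5 CPM in WT TAC, against 30.8, 6.08 and 9.87 CPM in KO sham and 14.1, 5.62 and 13.5 CPM in WT sham. Its WT libraries were apart and its KO libraries overlapped, with KO sham 348 above every KO TAC library. The effect over both genotypes, 1.23 ± 0.34 (edgeR adjusted p = 0.0253), was lost without WT sham 131, 132 or 133 or KO sham 349 (adjusted p = 0.0738, 0.0732, 0.0532 and 0.0546). Pi16, a marker of adventitial fibroblasts, rose by 0.89 ± 0.14, and stood at 0.64 (adjusted p = 0.0845) with the fibroblast covariate, a mean that includes Pi16 itself. Pdgfra, the receptor that defines resident fibroblasts, stood at 8.69, 7.64, 9.3 and 8.12 CPM in KO TAC and 28.3, 19.98, 32.5, 26.1 and 25.7 CPM in WT TAC, against 18.3, 13.2 and 16.2 CPM in KO sham and 37.9, 26.6 and 27.1 CPM in WT sham. Its effect was -0.54 ± 0.14 (edgeR adjusted p = 0.0232), with KO libraries apart and WT libraries overlapping. The call on Pdgfra was lost without WT sham 131, KO sham 348 or KO TAC 352 (adjusted p = 0.0647, 0.0534 and 0.0521).

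Entering the mean fibroblast marker level as a covariate left 9 interstitial matrix genes higher and 1 lower, in place of 26 and 1, and 8 of the 18 markers are themselves in that matrix list. Postn, Mfap5, Col1a1, Pi16 and Cilp are among the 18 markers, so each was fitted beside a mean that contains its own level. A lost or reversed call of these genes in that fit cannot be read apart from that. Postn at 1.46 (adjusted p = 0.0634), Mfap5 at 1.01 (adjusted p = 0.112), Svep1 at 0.74 (adjusted p = 0.246) and Bgn at 0.48 (adjusted p = 0.124) lost their calls, and Col1a1 turned to -0.19 (adjusted p = 0.662). Col15a1 stood at 1.30 in that fit (adjusted p = 0.00195), Cilp at 3.73 (adjusted p = 0.00298), Ctgf at 0.93 (adjusted p = 0.00819) and Emilin1 at 0.48 (adjusted p = 0.0269). Col4a1 and Col4a2 stood at 0.47 and 0.54 (adjusted p = 0.0173 and 0.00646). The part that fibroblast RNA had in the other rises was not tested.

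**Figure D4:**
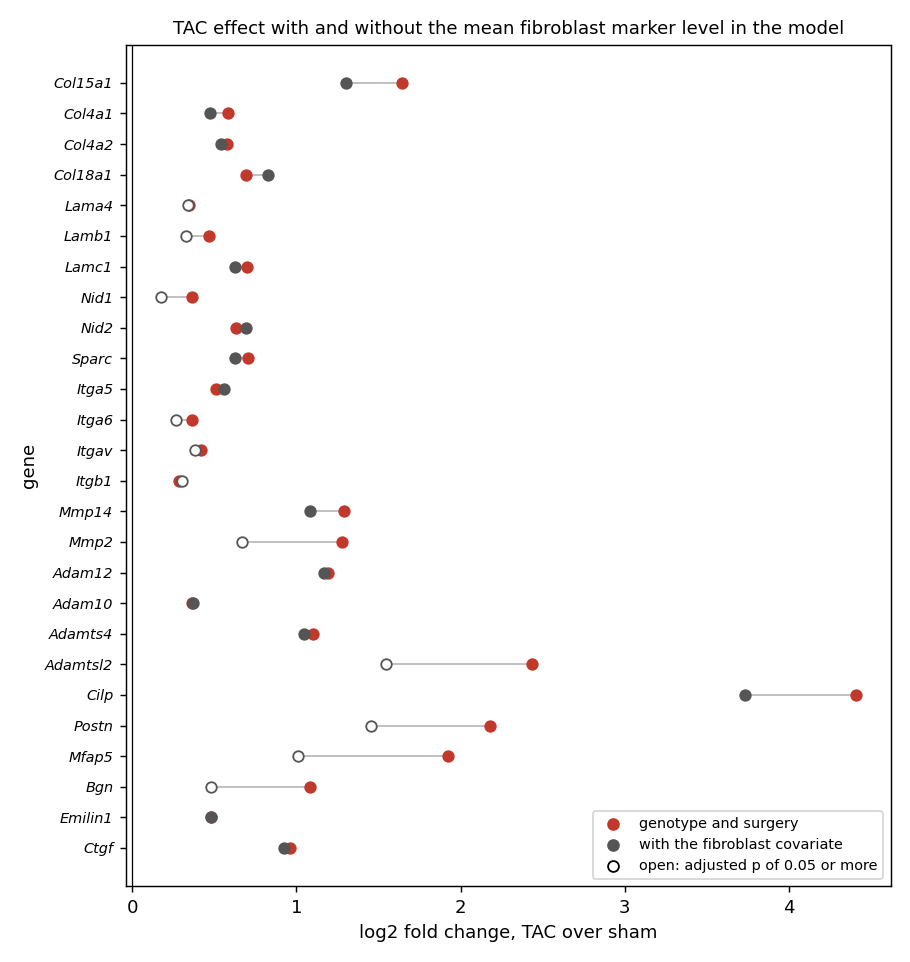
Log2 fold change of TAC over sham for 26 matrix, integrin and protease genes in the model with genotype and surgery (red) and with the mean fibroblast marker level added (grey), joined by a line for each gene. Filled points have an adjusted p under 0.05 and open points do not. Col15a1, Col4a1, Col4a2, Mmp14 and Adam12 stay filled, while Postn, Mfap5, Bgn, Mmp2 and Adamtsl2 move left and open. Postn, Mfap5 and Cilp are themselves part of the marker mean.

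Matrix-cutting enzymes rose as well. Of 25 proteases and inhibitors tested, 10 rose and none fell (40%, against 8.53% of all genes), with a median of 0.26, and 7 were apart in each genotype. Mmp14, the membrane-anchored collagenase that activates other metalloproteinases (mm10 chromosome 14, 54431604 to 54441258, plus strand), stood at 43.5, 55.6, 55 and 34.5 CPM in KO TAC and 33, 32.5, 25.3, 31.3 and 31.5 CPM in WT TAC, against 20.8, 18.9 and 15.2 CPM in KO sham and 15.6, 10.7 and 14.3 CPM in WT sham. It rose in both genotypes without overlap (log2 fold change 1.29 ± 0.13 (SE), edgeR adjusted p = 1.34e-06). Adam12, a membrane metalloproteinase, stood at 22.8, 40.7, 36.6 and 25.9 CPM in KO TAC and 14.6, 15.4, 15, 15 and 15.9 CPM in WT TAC, against 12.8, 14.1 and 12.1 CPM in KO sham and 6.22, 7.76 and 7.52 CPM in WT sham, also without overlap (log2 fold change 1.19 ± 0.14 (SE), edgeR adjusted p = 1.02e-05). Adam10, the sheddase that opens Notch receptors, ranged over 372 to 413 CPM (median 380.5) in TAC libraries, against 253 to 332 CPM (median 303) in sham libraries, and rose by 0.37 ± 0.06 (edgeR adjusted p = 0.000261). Adamts4, an aggrecanase, rose by 1.10 ± 0.15. Mmp2, the gelatinase that Mmp14 activates, ranged over 12.8 to 29.1 CPM (median 22.3) in TAC libraries, against 4.93 to 10.3 CPM (median 8.47) in sham libraries and rose by 1.28 ± 0.18, and with the fibroblast covariate stood at 0.67 (adjusted p = 0.114). Adamtsl2, a secreted microfibril-binding protein without protease activity, rose by 2.44 ± 0.39 and with that covariate stood at 1.55 (adjusted p = 0.0967). Among 16 genes of collagen processing 4 rose (25%, against 4.89% of all genes), with Fkbp10 at 0.99 ± 0.20 and the collagen chaperone Serpinh1 at 0.31 ± 0.07.

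**Figure D5:**
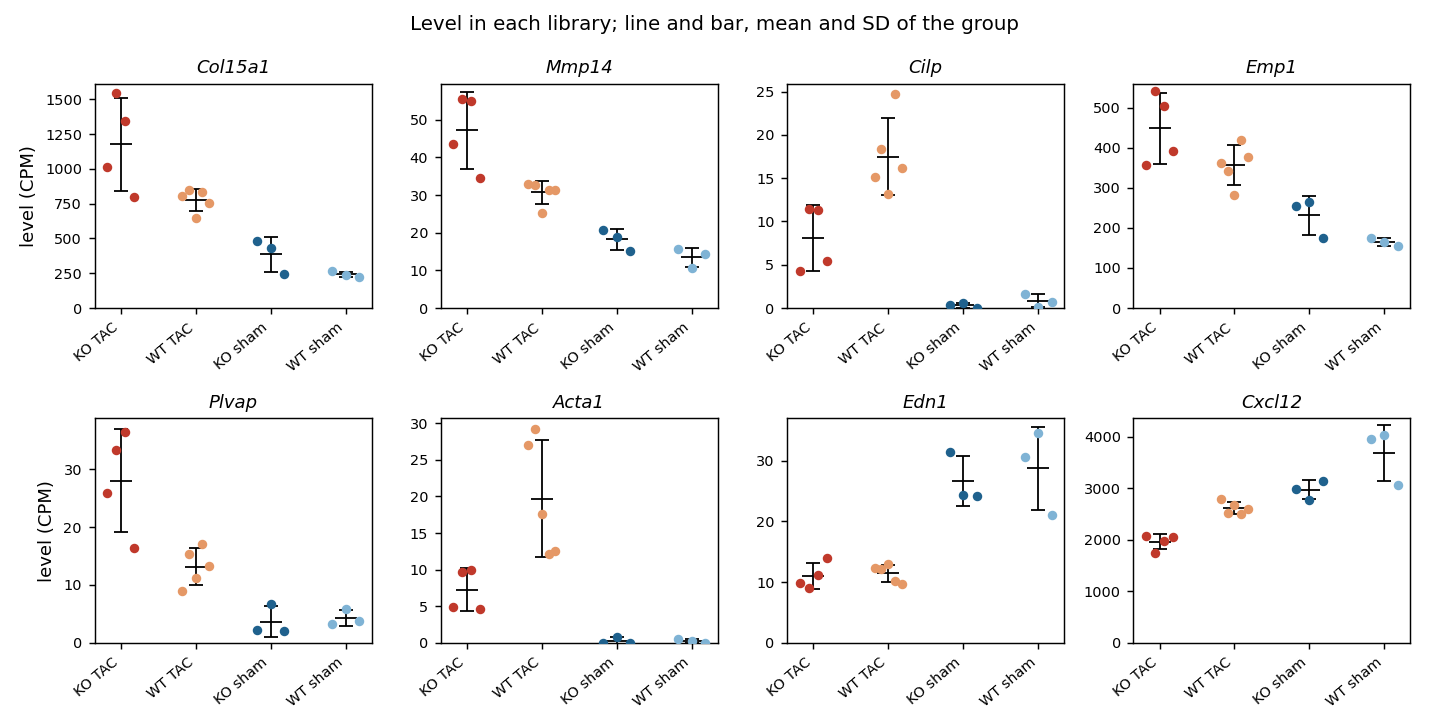
Level in CPM of 8 genes in every library, by group from left to right KO TAC, WT TAC, KO sham and WT sham, with each point 1 library and the line and bar the mean and SD of the group (n = 4, 5, 3 and 3). All vertical axes start at 0. Col15a1, Mmp14, Cilp, Emp1, Plvap and Acta1 are higher in all TAC libraries than in all sham libraries, Edn1 is lower in all of them, and Cxcl12 is lower within each genotype.

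Ligands, receptors and effectors of TGF-beta and BMP signalling moved both ways. Of 37 tested, 7 rose and 7 fell, with a median of 0.03 (37.8% called, against 4.89% higher and 3.64% lower over all genes). Among the ligands Inhbb, the subunit of activin B, stood at 9.88, 8.02, 9.09 and 7.98 CPM in KO TAC and 6.27, 8.49, 10.4, 8.9 and 11.9 CPM in WT TAC, against 3.68, 3.75 and 4.11 CPM in KO sham and 1.98, 1.77 and 2.26 CPM in WT sham. It rose without overlap by 1.67 ± 0.22 (edgeR adjusted p = 5.37e-05). Bmp2 rose by 2.29 ± 0.36, a fitted value that rests on 2 sham libraries with at most 3 counts, and was 15.8, 25.2, 32.1 and 12.5 CPM in KO TAC and 4.56, 2.47, 4.43, 3.81 and 3.16 CPM in WT TAC, against 7.03, 3.14 and 0.411 CPM in KO sham and 0.848, 1.26 and 0 CPM in WT sham. Tgfb2 fell, at 12.6, 11.3, 13 and 9.83 CPM in KO TAC and 10.0, 9.76, 13.8, 10.7 and 11.9 CPM in WT TAC, against 24.6, 18.4 and 25.5 CPM in KO sham and 22.2, 17.9 and 15 CPM in WT sham. Every TAC library lay below every sham library (log2 fold change -0.86 ± 0.13 (SE), edgeR adjusted p = 0.000183). Bmp6, a ligand by which endothelial cells signal iron load in the liver, fell by 0.71 ± 0.14, and Bmp4 by 0.55 ± 0.13. With the fibroblast covariate Bmp6 stood at -0.65 (adjusted p = 0.114), Bmp4 at -0.44 (adjusted p = 0.218) and the co-receptor Eng at -0.30 (adjusted p = 0.122), none of them called.

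The co-receptors Tgfbr3 and Eng fell. Tgfbr3, betaglycan, which presents TGF-beta2 to its receptors, ranged over 73.1 to 100.3 CPM (median 86.4) in TAC libraries, against 103 to 142 CPM (median 115) in sham libraries without overlap (log2 fold change -0.48 ± 0.08 (SE), edgeR adjusted p = 0.00048). Eng, endoglin, the endothelial co-receptor for BMP9, ranged over 1303 to 1557 CPM (median 1397) in TAC libraries, against 1594 to 2130 CPM (median 1662) in sham libraries, also without overlap (log2 fold change -0.32 ± 0.07 (SE), edgeR adjusted p = 0.00457). Among the effectors Smad9 of the BMP branch fell by 1.34 ± 0.28, while Skil, which represses Smad transcription and is itself a TGF-beta target, rose by 0.60 ± 0.09. Of 13 genes of mesenchymal transition 4 rose and 1 fell (38.5%, against 8.53% of all genes), and 2 rose without WT sham 133 or KO sham 349 and 1 with the cardiomyocyte covariate. The median over the 13 was 0.135, with -0.04 in KO and 0.07 in WT. The gene that fell was the smooth muscle actin Acta2 (log2 fold change -1.02 ± 0.24 (SE), edgeR adjusted p = 0.0088). Its effect was -0.80 in KO, whose libraries overlapped, and -1.25 in WT, whose libraries were apart. The intermediate filament Vim ranged over 872 to 1685 CPM (median 1064) in TAC libraries, against 648 to 1081 CPM (median 763) in sham libraries and rose by 0.53 ± 0.08, apart within each genotype.

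Among the vasoactive genes the endothelin precursor fell and an endothelin receptor rose. Edn1 encodes the precursor of endothelin-1, a strong vasoconstrictor that endothelium secretes (mm10 chromosome 13, 42301270 to 42307989, plus strand). It stood at 9.88, 8.95, 11.2 and 14 CPM in KO TAC and 12.3, 12.2, 12.9, 10.3 and 9.75 CPM in WT TAC, against 31.4, 24.4 and 24.2 CPM in KO sham and 30.6, 34.5 and 21.1 CPM in WT sham. All 9 TAC libraries lay below all 6 sham libraries (log2 fold change -1.33 ± 0.12 (SE), edgeR adjusted p = 8.52e-07), with effects of -1.29 in KO and -1.38 in WT. Its receptor gene Ednrb moved the other way, at 189, 179.6, 188 and 193 CPM in KO TAC and 367, 393, 439.7, 486 and 424 CPM in WT TAC, against 97, 136 and 173 CPM in KO sham and 140.4, 171 and 207 CPM in WT sham. Ednrb rose by 0.90 ± 0.14 over both genotypes, but by 0.48 in KO and 1.32 in WT, a difference that passed the test (adjusted p = 0.0488). Of 30 vasoactive and flow-responsive genes 7 rose and 4 fell (36.7%, against 8.53% of all genes). The 4 lower calls became 1 without WT sham 131, 2 without WT sham 133, KO sham 350, KO TAC 352 or KO TAC 353, and 2 without KO sham 348 and KO sham 350 together. The cyclooxygenase Ptgs1 rose by 0.75 ± 0.12, with 0.48 in KO and 1.025 in WT (adjusted p of the difference = 0.2305). The inward rectifier Kcnj2 rose by 1.01 ± 0.19, with 0.55 in KO and 1.47 in WT (adjusted p of the difference = 0.1854). For Ptgs1 and Kcnj2 the KO libraries overlapped and the WT libraries were apart. The natriuretic peptide clearance receptor Npr3 fell by 0.96 ± 0.25. The call on Npr3 was lost without WT sham 131 or KO sham 349 (adjusted p = 0.0587 and 0.0526). With the fibroblast covariate 1 vasoactive gene was higher and 2 were lower. Edn1 was then still called, at -1.29 (adjusted p = 0.00111). Ednrb at 0.78 (adjusted p = 0.0592), Ptgs1 at 0.49 (adjusted p = 0.157), Kcnj2 at 0.74 (adjusted p = 0.206) and Npr3 at -0.83 (adjusted p = 0.22) were not.

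Other signals of the endothelium fell in both genotypes. Cxcl12, the chemokine that holds CXCR4-bearing cells in place (mm10 chromosome 6, 117168535 to 117181368, plus strand), stood at 2067, 1751, 1983 and 2045 CPM in KO TAC and 2788, 2528, 2676, 2507 and 2604 CPM in WT TAC, against 2987, 2779 and 3142 CPM in KO sham and 3964, 4036 and 3059 CPM in WT sham. The libraries were apart within each genotype (log2 fold change -0.54 ± 0.06 (SE), edgeR adjusted p = 1.27e-05). Cyp1a1, the most responsive target of the aryl hydrocarbon receptor, stood at 0.159, 0.373, 0.102 and 0.427 CPM in KO TAC and 6.58, 8.02, 15.2, 5.54 and 14.7 CPM in WT TAC, against 3.46, 5.98 and 8.22 CPM in KO sham and 32.4, 47.2 and 38.4 CPM in WT sham. It was apart within each genotype (log2 fold change -2.54 ± 0.32 (SE), edgeR adjusted p = 2.62e-05), and 3 of 4 KO TAC libraries held at most 3 counts. Ahr, the receptor itself, was called lower over both genotypes (log2 fold change -0.40 ± 0.12), but its WT libraries overlapped and its effect was -0.83 in KO and -0.02 in WT (adjusted p of the difference = 0.0174). Tnfaip2, a gene induced by tumour necrosis factor, rose in both genotypes, with 17.4 to 50.7 CPM (median 30.9) in TAC libraries, against 4.51 to 17.5 CPM (median 11.3) in sham libraries, an effect of 1.6 ± 0.19 (edgeR adjusted p = 1.27e-05).

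Some markers of endothelial classes changed. Of 22 identity genes, Cd34 rose and Tek and Eng fell (13.6%, against 8.53% of all genes). Cd34, a sialomucin of capillary endothelium and sprouting cells, stood at 1370, 1607, 1441 and 1373 CPM in KO TAC and 1339, 1241, 1134, 1375 and 1276 CPM in WT TAC, against 1147, 1037 and 787 CPM in KO sham and 756, 809.8 and 675 CPM in WT sham, apart within each genotype (log2 fold change 0.66 ± 0.08 (SE), edgeR adjusted p = 1.45e-05). Among 15 capillary markers 3 fell (20%), Car4, Cd36 and Aqp7, whose KO libraries were apart and whose WT libraries overlapped. Car4, a carbonic anhydrase of the capillary surface, stood at 43, 26.6, 27.2 and 41.6 CPM in KO TAC and 167, 143, 199.7, 137 and 170.1 CPM in WT TAC, against 94.4, 81.5 and 101 CPM in KO sham and 159, 161 and 219 CPM in WT sham. Its effects were -1.42 in KO and -0.11 in WT (adjusted p of the difference = 0.0117). Aqp7, a glycerol channel, had -0.92 in KO and -0.16 in WT (adjusted p of the difference = 0.0709), and Cd36, the fatty acid transporter, -0.66 in KO and -0.02 in WT (adjusted p of the difference = 0.0321). Leaving out any 1 of 7 libraries ended the call on Cd36 (adjusted p from 0.0652 to 0.0929). Without KO sham 348 and KO sham 350 none of the 15 capillary markers was called in edgeR, with Car4 at -0.46 (adjusted p = 0.0932), Aqp7 at -0.39 (adjusted p = 0.0679) and Cd36 at -0.24 (adjusted p = 0.187); with all libraries 1 was higher and 3 were lower at an unadjusted p under 0.05, DESeq2 called 3 and limma voom 1. Of 18 arterial markers 2 fell (11.1%), apart within each genotype. Mecom, a transcription factor of arterial endothelium, ranged over 141 to 178 CPM (median 167) in TAC libraries, against 197 to 254 CPM (median 212) in sham libraries without overlap (log2 fold change -0.46 ± 0.07 (SE), edgeR adjusted p = 0.000156), and Alpl, alkaline phosphatase, fell by 0.89 ± 0.15, with -0.75 (adjusted p = 0.0664) when the fibroblast covariate was added.

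Of 14 venous markers 3 rose (21.4%, against 8.53% of all genes called). Plvap, the protein of fenestral and stomatal diaphragms, which normal cardiac capillaries largely lack (mm10 chromosome 8, 71497753 to 71511769, minus strand), stood at 25.9, 33.4, 36.5 and 16.4 CPM in KO TAC and 8.93, 15.3, 11.2, 17.1 and 13.2 CPM in WT TAC, against 2.12, 6.69 and 2.06 CPM in KO sham and 3.3, 5.91 and 3.76 CPM in WT sham. Every TAC library lay above every sham library (log2 fold change 2.19 ± 0.29 (SE), edgeR adjusted p = 5.64e-05), with 2.87 in KO and 1.52 in WT. Lrg1, a secreted glycoprotein of venules that promotes vessel growth, was called over both genotypes (1.46 ± 0.41), but its KO libraries overlapped and its effects were 0.42 in KO and 2.75 in WT (adjusted p of the difference = 0.0869). The call on Lrg1 was lost without KO TAC 351, KO sham 349, or any 1 of the 3 WT sham libraries (adjusted p = 0.0529, 0.0587, and from 0.0618 to 0.0976).

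Genes of sprouting endothelium rose in 10 of 28 cases (35.7%, against 4.89% of all genes), with a median of 0.31 over the 28, 0.29 in KO and 0.26 in WT. Among the 28, 4 were higher and apart in each genotype, against 1.96% of all genes. Nid2 and Lamb1, which are among the 10, were also counted in the basement membrane list. Emp1, a tetraspan membrane protein, stood at 356, 541, 504 and 393 CPM in KO TAC and 362, 342, 283, 419.6 and 378 CPM in WT TAC, against 254, 265 and 175 CPM in KO sham and 174, 166 and 155 CPM in WT sham. It was higher in every TAC library (log2 fold change 1.03 ± 0.11 (SE), edgeR adjusted p = 3.47e-06). Fscn1, the actin bundler of filopodia, ranged over 464 to 592 CPM (median 519) in TAC libraries, against 341 to 426 CPM (median 396) in sham libraries without overlap (log2 fold change 0.46 ± 0.06 (SE), edgeR adjusted p = 2.06e-05). Sema3f, of the semaphorin list, a secreted guidance cue that binds neuropilins, ranged over 206 to 321 CPM (median 269.5) in TAC libraries, against 121 to 183 CPM (median 151) in sham libraries without overlap (log2 fold change 0.82 ± 0.08 (SE), edgeR adjusted p = 8.52e-07). Of the 26 semaphorin, plexin and ephrin genes tested 5 rose and 3 fell (30.8%, against 8.53% of all genes), with a median of 0.10. Outside both lists the homeobox factor Meox1 rose by 0.63 ± 0.08. Esm1, the tip cell proteoglycan endocan, ranged over 13.2 to 38.4 CPM (median 30.9) in TAC libraries, against 7.59 to 24.1 CPM (median 13.8) in sham libraries with overlap in both genotypes (log2 fold change 1.00 ± 0.21 (SE), edgeR adjusted p = 0.00345). Apln, the ligand of the apelin receptor, stood at 604, 631, 612 and 457 CPM in KO TAC and 102, 92.2, 71.1, 73.4 and 62.2 CPM in WT TAC, against 275, 357 and 217 CPM in KO sham and 66.5, 77.6 and 60.2 CPM in WT sham. All KO libraries lay above all WT libraries. Its effect of 0.62 ± 0.14 over both genotypes came with 1.02 in KO and 0.21 in WT (adjusted p of the difference = 0.0886). Trp53i11, a p53-inducible protein by its name, rose in both genotypes without overlap, and by less in KO (0.28) than in WT (0.90; adjusted p of the difference = 0.0174). With the fibroblast covariate 6 of the 28 were called higher, and Esm1 at 1.11 (adjusted p = 0.0861) and Trp53i11 at 0.37 (adjusted p = 0.136) did not pass, with a fitted value for Esm1 no smaller than before. Without KO sham 348 and KO sham 350 Apln stood at 0.37 (adjusted p = 0.0795).

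Transcripts of heart muscle were present at low level in the sorted cells, and they moved both ways. The 25 cardiomyocyte genes summed to 499 to 701 CPM (median 620) in TAC libraries, against 646 to 769 CPM (median 694) in sham libraries. By group they averaged 529 ± 43.3 CPM in KO TAC and 661 ± 30.7 CPM in WT TAC, against 691 ± 68 CPM in KO sham and 705 ± 18.4 CPM in WT sham (SD, n = 4, 5, 3 and 3). Of 23 tested, Xirp2 rose, and Myh6, Ttn, Ryr2 and Pln fell (21.7%, against 8.53% of all genes). With 1 library left out 1 to 3 rose (3 without KO sham 350) and 4 to 7 fell (7 without KO TAC 351), and limma voom called 4 higher and 5 lower. Myh6, the adult cardiac myosin heavy chain, ranged over 7.46 to 28.6 CPM (median 14.8) in TAC libraries, against 25.3 to 39.1 CPM (median 31) in sham libraries, with KO libraries apart and WT libraries overlapping (log2 fold change -1.13 ± 0.17 (SE), edgeR adjusted p = 0.000198). Ttn, titin, had -1.23 in KO and -0.26 in WT (adjusted p of the difference = 0.0248). Ryr2 and Pln, the calcium release channel and phospholamban, fell by 0.95 ± 0.20 and 0.76 ± 0.20, and Pln stood at -1.03 (adjusted p = 0.0524) with the fibroblast covariate and at -0.66 (adjusted p = 0.0652) without KO sham 348 and KO sham 350. Xirp2, an actin-binding protein of the intercalated disc, ranged over 7.41 to 25.5 CPM (median 14.1) in TAC libraries, against 1.03 to 6.14 CPM (median 4.2) in sham libraries without overlap (log2 fold change 1.82 ± 0.27 (SE), edgeR adjusted p = 0.00019), and with the fibroblast covariate stood at 1.07 (adjusted p = 0.0881).

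Acta1 and Ankrd1, genes that heart muscle switches on under load, rose. Acta1 encodes skeletal alpha-actin (mm10 chromosome 8, 123891767 to 123894736, minus strand) and stood at 4.94, 9.69, 9.91 and 4.56 CPM in KO TAC and 27.1, 29.2, 17.6, 12.2 and 12.5 CPM in WT TAC, against 0, 0.811 and 0 CPM in KO sham and 0.471, 0.222 and 0 CPM in WT sham. The TAC libraries held 32 to 437 counts and the sham libraries 0 to 8. The fitted effect of 5.29 ± 0.47 (edgeR adjusted p = 7.22e-07) depends on how the low sham counts are handled. Ankrd1, the cardiac ankyrin repeat protein and a target of YAP, stood at 6.38, 6.62, 5.52 and 2.99 CPM in KO TAC and 6.77, 12.7, 5.79, 15.3 and 6.73 CPM in WT TAC, against 1.9, 2.13 and 0 CPM in KO sham and 1.04, 0.591 and 0 CPM in WT sham. The groups did not overlap (log2 fold change 2.66 ± 0.44 (SE), edgeR adjusted p = 0.000514), and the call was lost with the fibroblast covariate, at 1.70 (adjusted p = 0.114). Of 20 YAP and TEAD genes 5 rose and 2 fell (35%, against 8.53% of all genes), with Wwtr1, the YAP relative TAZ, at 0.26 ± 0.05, and at 0.19 (adjusted p = 0.223) with the fibroblast covariate. With 1 library left out the YAP and TEAD genes gave 3 to 6 higher and 0 (without WT sham 133) to 2 lower. Of 24 genes of the cytoskeleton and of serum response factor 5 rose and 2 fell (29.2%; 3 higher without WT sham 131), with Lmna, lamin A/C, at 0.54 ± 0.08 and Vcl, vinculin, at -0.30 ± 0.05. The cell type from which the reads of Acta1 and Ankrd1 came was not tested.

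The bases before the starts of Acta1 and Ankrd1 are shown because both genes are known targets of the load-responsive factors SRF and TEAD. They are taken from RefSeq (GRCm38.p6), 250 bases up to the start of each gene, read 5′ to 3′ on the gene's own strand, which is the minus strand of both, at chr8:123894776-123895025 and chr19:36119845-36120094. Capitals mark matches on either strand to the CArG box, the site of SRF, and to GGAATG, the core site of TEAD factors, and none of the marked matches overlap:
Acta1: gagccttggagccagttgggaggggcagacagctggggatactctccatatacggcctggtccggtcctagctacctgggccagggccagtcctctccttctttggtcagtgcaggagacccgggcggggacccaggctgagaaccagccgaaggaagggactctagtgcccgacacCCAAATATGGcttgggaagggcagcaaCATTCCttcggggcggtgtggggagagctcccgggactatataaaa
Ankrd1: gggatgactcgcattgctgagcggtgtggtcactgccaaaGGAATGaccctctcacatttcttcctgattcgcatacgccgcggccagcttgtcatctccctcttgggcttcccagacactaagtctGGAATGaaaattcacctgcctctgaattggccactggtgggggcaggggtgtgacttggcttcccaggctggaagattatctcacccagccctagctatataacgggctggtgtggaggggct
The Acta1 stretch holds 1 CArG box and 1 TEAD core, and that of Ankrd1 2 TEAD cores. Over the 8844 tested genes with a promoter entry, in windows that also include the first bases of the gene, the CArG box was found in 1.37% of all genes, 0.693% of those that rose and 2.69% of those that fell. These CArG shares rest on few promoters, 3 of 433 that rose and 9 of 335 that fell. The TEAD core was found in 12.1% of all genes, 11.5% of those that rose and 12.8% of those that fell. The AP-1 motif TGANTCA, searched on both strands, was found in 4.61%, 6.47% and 5.07% of the same sets. These are letter matches, and binding was not measured.

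Of 29 p53 targets and senescence genes 7 rose (24.1%, against 8.53% of all genes), with a median of 0.17, but the median was 0.34 in KO and -0.05 in WT. Zmat3, an RNA-binding p53 target, stood at 231, 243, 242 and 189.8 CPM in KO TAC and 25.1, 26.5, 23.9, 30.5 and 22.8 CPM in WT TAC, against 113, 119 and 75.8 CPM in KO sham and 20.3, 18 and 25.6 CPM in WT sham. All KO libraries lay above all WT libraries, and its effect was 1.13 in KO and 0.37 in WT (adjusted p of the difference = 0.08). Without KO sham 348 and KO sham 350 the list gave 2 members higher in place of 7 (3 without KO sham 348 alone), and Ccng1, a cyclin induced by p53, was then not called (adjusted p = 0.154), nor without KO TAC 352, KO sham 348 or WT sham 131 alone (adjusted p from 0.0558 to 0.063). Gdf15, a secreted stress cytokine, was called higher over both genotypes (0.93 ± 0.25), with effects of 1.37 in KO and -0.37 in WT (adjusted p of the difference = 0.0437). It was not called over both genotypes by DESeq2 (adjusted p = 0.316), nor without KO TAC 351, KO TAC 354, KO sham 348 or KO sham 349 (adjusted p from 0.0545 to 0.0672).

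Of 47 interferon-stimulated genes 2 rose (4.26%, against 8.53% of all genes), Ifi27l2a by 0.81 ± 0.25 and the nucleic acid sensor Zbp1 by 1.25 ± 0.38. Leaving out any 1 of 10 libraries ended the call on Ifi27l2a (adjusted p from 0.0557 to 0.091), and any 1 of 10 that on Zbp1 (adjusted p from 0.0578 to 0.103). Of 17 genes of the cGAS-STING pathway none was called in edgeR, 3 were higher and 1 lower at an unadjusted p under 0.05, DESeq2 called 1 lower, and limma voom called 1 higher and 1 lower. Of 77 genes of cytosolic ribosomal proteins none was called in edgeR, 5 were higher and 1 lower at an unadjusted p under 0.05, DESeq2 called 2 higher and limma voom 0. Of 26 genes of DNA replication none was called in edgeR, DESeq2 or limma voom, and 2 had an unadjusted p under 0.05. Of 25 mitosis genes 1 was called (4%, against 8.53% of all genes). Of the 25, 24 lay above 0, with a median of 0.43, against 0.00 over all genes. The median was 0.63 in KO and 0.27 in WT. Their summed level averaged 571 ± 91.6 CPM in KO TAC and 132 ± 51.2 CPM in WT TAC (SD). The sham averages were 374 ± 112 CPM in KO and 116 ± 11.2 CPM in WT. Of 26 immediate early genes 2 rose and 3 fell (19.2%). The 3 lower calls became 0 to 4 with 1 library left out, 0 without WT sham 133 or WT TAC 137, and 1 without KO sham 348 and KO sham 350 together. The AP-1 member Fosl2 ranged over 175 to 269.6 CPM (median 236) in TAC libraries, against 131 to 204 CPM (median 155) in sham libraries and rose by 0.50 ± 0.09. The imprinted long noncoding RNA Kcnq1ot1 fell by 0.74 ± 0.15, with -0.40 in KO and -1.05 in WT, and with the fibroblast covariate stood at -0.42 (adjusted p = 0.281).

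Genes outside the lists also changed without overlap between the surgeries. Cfb, complement factor B of the alternative pathway, stood at 17.3, 18.6, 24 and 20.4 CPM in KO TAC and 19.6, 22.9, 15, 23.8 and 29.4 CPM in WT TAC, against 9.6, 9.94 and 5.75 CPM in KO sham and 8.86, 8.79 and 5.26 CPM in WT sham. It rose without overlap (log2 fold change 1.31 ± 0.16 (SE), edgeR adjusted p = 2.11e-05). Igf1, insulin-like growth factor 1, ranged over 15.5 to 39.1 CPM (median 25.2) in TAC libraries, against 6.77 to 13.1 CPM (median 8.1) in sham libraries without overlap (log2 fold change 1.47 ± 0.21 (SE), edgeR adjusted p = 0.000112), and with the fibroblast covariate stood at 1.15 (adjusted p = 0.0502). Coro6, of the actin-binding coronins, stood at 47.3, 34.6, 35.5 and 46.9 CPM in KO TAC and 47.6, 78.6, 66.6, 52.5 and 64.7 CPM in WT TAC, against 84.8, 80.9 and 115 CPM in KO sham and 107, 100.4 and 119 CPM in WT sham, and fell without overlap (log2 fold change -0.98 ± 0.12 (SE), edgeR adjusted p = 1.27e-05). Vwa3a, a protein with von Willebrand factor A domains, ranged over 47.7 to 94.1 CPM (median 79.8) in TAC libraries, against 113 to 179.7 CPM (median 133) in sham libraries and fell without overlap (log2 fold change -0.89 ± 0.11 (SE), edgeR adjusted p = 2.05e-05). Aldh5a1, the succinate semialdehyde dehydrogenase, ranged over 4.28 to 8.36 CPM (median 5.82) in TAC libraries, against 9.33 to 13.8 CPM (median 10.8) in sham libraries and fell by 0.88 ± 0.17.

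For some called genes the averaged effect is not one common value. The 23 genes called over both genotypes whose effect also differed between them included, with the smallest p of that difference, Fmo1, Cables2, Car4, Tek and Xdh. Tek, the angiopoietin receptor Tie2, stood at 373, 384, 376 and 403 CPM in KO TAC and 758, 735, 798, 736 and 783 CPM in WT TAC, against 550.4, 563 and 658 CPM in KO sham and 793, 811 and 777 CPM in WT sham, and its effect was -0.62 in KO and -0.06 in WT (adjusted p of the difference = 0.0138). The KO libraries were apart and the WT libraries overlapped. The same held for the flavin monooxygenase Fmo1, with -0.64 in KO and 0.02 in WT, for Cables2, with -0.69 in KO and -0.003 in WT, and for the xanthine dehydrogenase Xdh, with -1.10 in KO and -0.05 in WT. Clmn, calmin, and Cdh23, a large atypical cadherin, fell in both genotypes without overlap within either, but by more in KO, with -1.42 in KO against -0.41 in WT for Clmn and -1.34 in KO against -0.34 in WT for Cdh23. The calls on Fmo1, Cables2 and Ahr over both genotypes were each lost without any 1 of 7 libraries, the 4 KO TAC libraries among them (adjusted p from 0.061 to 0.0878 for Fmo1, 0.0526 to 0.0655 for Cables2 and 0.0506 to 0.0791 for Ahr), and that on Xdh without KO TAC 352 or KO TAC 353 (adjusted p = 0.0531 and 0.0517). Without KO sham 348 and KO sham 350 together Tek, Fmo1, Cables2, Xdh and Ahr were not called (adjusted p = 0.0835, 0.277, 0.174, 0.106 and 0.247).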

How the data were processed

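RNA of sorted cardiac endothelial cells was measured by RNA sequencing in 15 mice. The authors deposited 1 table of raw counts per gene, made with featureCounts 1.6.2 on UCSC mm10 genes with strand setting 2, per the file header, after alignment with HISAT2 2.1.0, per the submitters' processing notes. Reads that mapped or overlapped more than once were not counted, so genes with near-identical copies are uncertain. The table holds 23337 genes, of which 25 have symbols turned to dates by spreadsheet software; the ribosomal repeat Rn45s took 7.51 to 10.7% of counts in TAC libraries and 8.34 to 13% in sham libraries and stayed in the totals. Totals of 1362346 to 15670319 counts mean that 3 counts correspond to 0.19 to 2.26 CPM.

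Groups were taken from the labels. Genes with enough counts (edgeR's filterByExpr, minimum count 10) were scaled with TMM factors (0.96 to 1.031) and tested with edgeR 4.0.16 quasi-likelihood in a model with genotype and surgery (12 residual degrees of freedom), with Benjamini-Hochberg adjustment over 12471 genes. A second model with 1 coefficient per group gave the KO and WT effects and their difference, and each genotype was also fitted alone. Fold changes are log2, TAC over sham, as fitted by edgeR at its default prior count. The value after ±, marked SE, is the size of the fold change divided by the square root of its F statistic. It is thus derived from the test and is not the standard error of the coefficient itself. The marker covariates are means of log2(CPM + 2). Libraries carry separate mouse numbers and 1 batch label, and p-values measure the spread between these mice.

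The alternatives were RLE scaling, DESeq2 1.42.0, limma 3.58.1 voom with sample weights, other filters, other models and covariates, a test against a fold of 1.5, and each of the 15 libraries left out. Genes were named by rule: the 15 higher and 15 lower called genes with the largest fold change and no overlap within either genotype, from each list up to 4 of the called members (those of smallest p), the targeted gene, and the 5 called genes with the smallest p of the genotype difference; the text gives those needed to describe each group. Outside this rule, Col18a1, Lama4, Lamb1, Lamc1, Nid1, Itgav, Col1a1, Pdgfra, Emilin1, Ltbp3, Bmp4, Bmp6, Tgfbr3, Smad9, Esm1, Apln, Pln and Ccng1 were chosen as further list members after their values were seen. The fits were tested on simulated data. Members, lists and tests were chosen with earlier results of these data known. Of 1263 list entries in 56 lists, 7 matched no gene of the table.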

Additional observations from a re-analysis of the deposited data

Results flagged for a closer look

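In groups of 4 or 5 libraries 1 library lay far from the rest, by its gap to the nearest other library as a share of the group's range (Dixon's test), for 9 of the 196 combinations of gene and group looked at, and chance alone flags about 1 in 20. Col4a1 was 6894 CPM in WT TAC 134, against 5828 to 6041 CPM in the other WT TAC libraries. Emilin1 was 109.5 CPM in WT TAC 135, against 82.7 to 90.1 CPM. Mmp14 was 25.32 CPM in WT TAC 136, against 31.3 to 33 CPM, which is still above every sham library. Sema3f and Fosl2 were both highest in WT TAC 138, Sema3f with 284.2 CPM against 206 to 226 CPM and Fosl2 with 269.6 CPM against 175 to 196 CPM. Among KO TAC libraries Fscn1 was 513.4 CPM in KO TAC 353, against 582 to 592 CPM, Apln 457.3 CPM in KO TAC 354, against 604 to 631 CPM, Ccng1 153.3 CPM in KO TAC 352, against 135 to 138 CPM, and Kcnq1ot1 305.5 CPM in KO TAC 351, against 329 to 333 CPM.

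For 13 of the 98 genes fitted for this text the effect of TAC in KO minus that in WT passed the test of the difference itself (edgeR, adjusted p under 0.05). Over all genes tested 86 of 12471 passed it (0.69%). The 2 shares cannot be compared, because Fmo1, Cables2, Car4, Tek and Xdh were named for the smallest p of this difference. On the log2 scale this difference was -0.84 for Ednrb, -0.81 for Ahr, -1.31 for Car4, -0.64 for Cd36, -0.56 for Tek, -0.62 for Trp53i11, -0.97 for Ttn, 1.74 for Gdf15, -1.01 for Clmn, -1.0 for Cdh23, -0.66 for Fmo1, -0.69 for Cables2 and -1.06 for Xdh. Of these only Gdf15 had the larger value in KO, and for Ednrb and Trp53i11, which rose, the negative difference means a smaller rise in KO. For the other 10 genes the effect was below 0 in KO, and in WT it was nearer to 0 and below it, or, for Fmo1, 0.02.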

How the results depend on the processing

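The direction of all 1064 calls was the same under RLE scaling, DESeq2, limma voom, no filter, the mean of the genotype effects, no genotype term and each single library left out, and that of 1062 with the fibroblast covariate. The 1064 calls (610 higher, 454 lower) became 258 (155 and 103) without the genotype term, 570 (309 and 261) with the fibroblast covariate, and 36 (32 and 4) against a fold of 1.5. With 1 library left out they ran from 731 to 1074, with 435 to 630 higher and 296 to 452 lower. DESeq2 called 314 genes for the difference between genotypes in place of 86, and the edgeR count ran from 24 to 764 with 1 library left out. Calls made the same way in KO alone and WT alone, 126 with all libraries, ran from 61 to 147. Col1a1 turned to -0.19 with the fibroblast covariate, a marker mean that contains Col1a1 itself, and any further cause was not tested. Of the values of single genes, 2284 kept direction and call, 262 lost the call, 1 gained it and 1 reversed. No paired analysis was possible because no mouse number is shared between groups. Depth limits genes with few counts, among them Acta1 and Cilp, of whose 6 sham libraries 4 held at most 3 counts. RNA of other sorted cells and a genotype with 3 sham mice, 2 of them set apart, limit what the average can show, and intervals of fitted values cover the spread between these mice alone.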

Other observations

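Rprl3, a small RNA gene of the ribonuclease P family with near-identical copies in the genome, held 1470, 2412 and 958 counts in KO sham 348, 349 and 350. The other 12 libraries held 0 to 2 counts. KO TAC 351 had 2 counts and the other KO TAC libraries had 0. WT TAC 135 had 1 count, and the other WT TAC libraries and all WT sham libraries had 0. Because reads from its copies cannot be told apart its counts are uncertain. The gene was chosen after its values were seen.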
